A study of Mus musculus with 16 samples.

Results

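The CD93-deficient (CD93-/-) and wild-type (WT) leukemia stem cell (LSC) libraries of a mouse model of chronic myeloid leukemia (CML) are 6 of the 16 RNA sequencing libraries of this series, 3 of each genotype by their titles. CD93-/- LSCs came from bone marrow of mice whose CML was started from CD93-/- LSK cells, and WT LSCs from mice whose CML was started from BL/6 LSK cells. LSK cells, sorted from marrow as lacking lineage markers and carrying Sca-1 and c-Kit, hold the blood stem cells. Before transfer, cells of both genotypes were transduced with a BCR-ABL1-GFP construct, which carries the oncogene of CML and a fluorescent marker. They were given into a vein of BL/6 hosts that had not been irradiated, so the hosts kept their own CD93-bearing marrow. The labelled age was 8 weeks in all groups, and a strain is labelled for WT libraries alone. Which exons of Cd93 were removed is not stated. Nor is it stated whether the libraries of a group came from separate animals, so p-values may measure technical spread. Further groups set beside them are CD93-/- LSK and WT LSK (2 libraries each, naive cells without BCR-ABL1), and LSCs of WT CML mice given metoclopramide (MCP, 10 mg/kg) or vehicle (Veh), 3 libraries each.

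Values are RPKM, reads scaled by transcript length and by library size, an identification made from the values. Each library of the CD93 experiment lists 26595 features, and those without signal stand at a lowest value of 0.003. A feature counted as detected when it was above that value. Genes were compared over the 661 features detected in all 6 LSC libraries, as percentile ranks within the library (0 to 100), and the 1321 features detected in all 3 WT LSC libraries and in none of the 3 CD93-/- LSC libraries were described apart. The first set was chosen on detection, which itself differed between the genotypes, as described below. It leaves out every gene at the lowest value in any CD93-/- LSC library, so its rank differences cover only genes that stayed detected there. The second set was chosen on the genotype contrast itself, so no test is given for it.

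CD93 is a C-type lectin-like transmembrane receptor of endothelial, myeloid and blood stem cells, and in CML it marks leukemia stem cells. LSCs in this disease resemble normal stem cells, self-renew and give rise to the leukemic myeloid cells. Dividing cells of this kind need new histones, ribosomes and respiratory chain proteins, whose transcripts are abundant and therefore well represented among the genes that could be compared.

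Cd93 itself did not separate the genotypes. Over libraries 1 to 3 it stood at 0.003, 44.3 and 0.003 RPKM in CD93-/- LSCs, and at 0.003, 0.003 and 5.74 RPKM in WT LSCs. The library labelled CD93-/- LSC 2 thus had the highest value of the 6, and the calls of the rank test and some of the counts are given below without it as well. In LSK cells Cd93 was 1.01 and 2.10 RPKM in CD93-/- and 5.34 and 22.9 in WT libraries. Markers of the sorted cell type were low in both LSC groups. Kit (c-Kit) was at 0.003 in the 3 CD93-/- LSC libraries and 0.221, 16.8 and 2.63 RPKM in the WT LSC libraries, and Ly6a (Sca-1) did not exceed 5.41 RPKM in any of the 6.

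Far fewer features were detected in CD93-/- LSCs than in WT LSCs. The numbers were 2967, 2310 and 1230 in the CD93-/- LSC libraries and 7956, 6867 and 5525 in the WT LSC libraries, with no overlap (exact permutation test, two-sided, p = 0.10, the smallest p that 3 against 3 allows). The median RPKM of detected features was 65.4, 127 and 144 in CD93-/- LSCs and 16.4, 19.5 and 31.7 in WT LSCs. Column totals were alike, at 1105517 to 1360625 in CD93-/- LSCs and 1121925 to 1243287 in WT LSCs, so the same total was spread over fewer features. In bulk RNA, fewer cells of a type and less RNA per cell cannot be told apart, and the number of reads behind each library is unknown. The single smallest detected value was 0.029, 0.036 and 0.022 RPKM in CD93-/- LSCs and 0.023, 0.028 and 0.014 in WT LSCs. Among genes of like transcript length (longest transcript from 1000 bases to a further 1000), the 5th percentile of detected values was 0.451, 0.491 and 0.388 RPKM in CD93-/- LSCs against 0.593, 0.511 and 0.626 in WT LSCs. Among genes with transcripts of 500 to 1000 bases it overlapped, at 0.593, 0.996 and 0.850 RPKM in CD93-/- LSCs and 1.52, 0.781 and 1.52 in WT LSCs. This was the only length class to overlap, and in all others every CD93-/- LSC value lay below every WT LSC value. Among genes with transcripts under 500 bases values were 1.71, 1.46 and 0.864 RPKM in CD93-/- LSCs and 2.25, 2.65 and 2.55 in WT LSCs. In the class of the longest transcripts they were 0.135, 0.114 and 0.0906 in CD93-/- and 0.221, 0.219 and 0.194 in WT LSCs.

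Detection followed the level of the gene in WT LSCs. Of the 4005 features detected in all 3 WT LSC libraries, 1321 (33%) were detected in no CD93-/- LSC library, 2023 in 1 or 2 of them and 661 (16.5%) in all 3. The share detected in none was 56.7% of features under 5 RPKM in WT LSCs, 36.0% at 20 to 100 RPKM and 1.89% at 500 RPKM or more. In the CD93-/- LSK libraries at least 95.7% of the features of each level were detected. The lowest CD93-/- LSC value of the 661 features had a median of 84.0 RPKM and went down to 0.051. By mean RPKM over the libraries, the median was 322.5 for the 661 features and 126.7 for the 836 features detected in 5 of the 6 libraries. Detection was also nested: 694 features were detected in all 3 CD93-/- LSC libraries, and 661 of them (95.2%) in all 3 WT LSC libraries too. Only 4 were detected in all 3 CD93-/- and no WT LSC library, the unnamed models Gm10941, Gm16157, Gm11202 and 9330158H04Rik, none above 2.31 RPKM. CD93-/- LSC library 3 stood apart, since 608 of the 836 features detected in 5 of the 6 libraries were missing there alone. Its ranks over the 661 features correlated with those of the other 5 libraries at Spearman 0.61 to 0.64, against 0.90 to 0.94 between WT LSC libraries and 0.78 between CD93-/- LSC libraries 1 and 2. These correlations are across genes, which are not independent replicates.

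**Figure D1:**
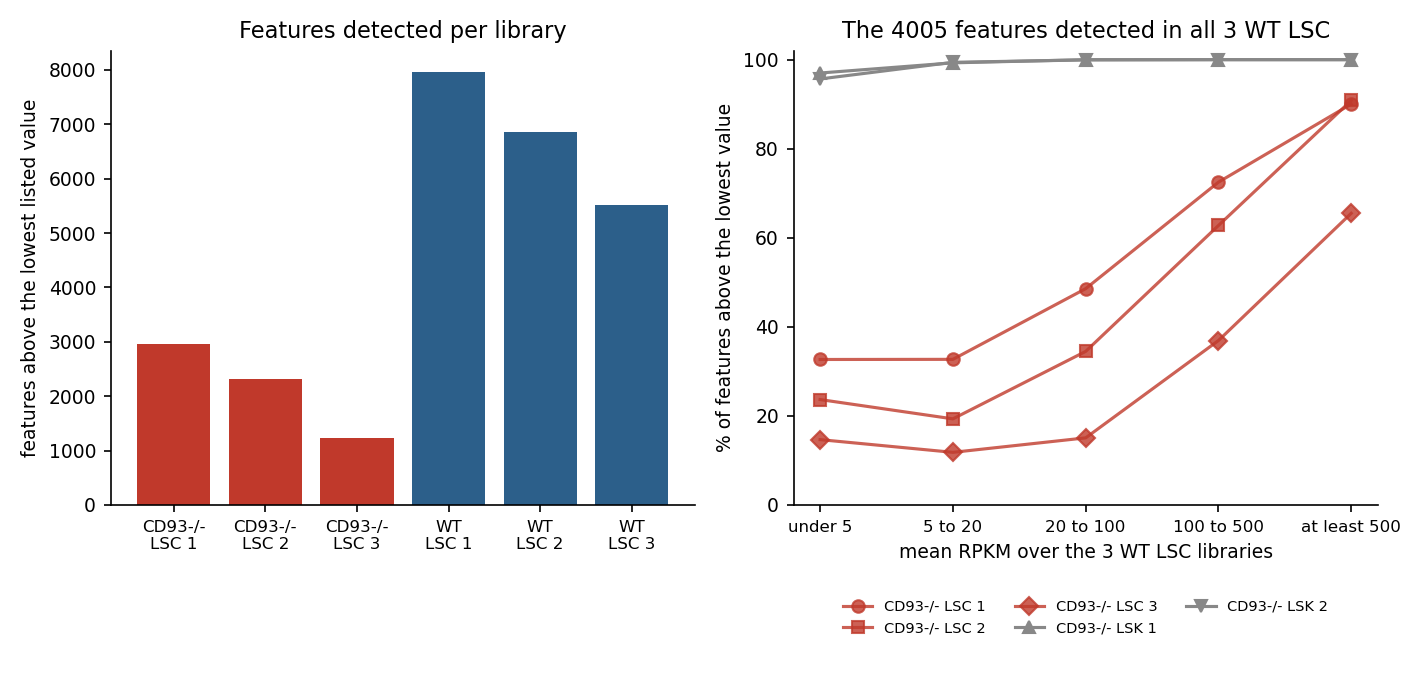
Left, bars give the number of features above the lowest listed value in each LSC library; right, lines give the percentage of the 4005 WT-detected features that each CD93-/- LSC and CD93-/- LSK library detected (vertical axis), by mean RPKM in WT LSCs (horizontal axis). The 3 CD93-/- LSC bars, 1230 to 2967, are all below the WT LSC bars, and their lines climb with the WT level while both LSK lines stay at 95.7% or more.

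No gene passed the rank comparison. Of the 661 features 0 (0%) had an adjusted p under 0.05 (limma on percentile ranks, two-sided, Benjamini-Hochberg over the 661, smallest adjusted p = 0.106), and 103 (15.6%) had an unadjusted p under 0.05. All CD93-/- LSC ranks lay below all WT LSC ranks for 81 features (12.3%) and above them for 91 (13.8%). Spread within a genotype was unequal: the median SD of a gene's rank was 10.2 percentile points over the CD93-/- LSC libraries and 4.85 over the WT LSC libraries, and it was larger in CD93-/- LSCs for 522 of the 661. When all 10 libraries of the CD93 experiment shared 1 estimate of the spread, 32 features were called higher and 28 lower, and the 10 genes with the smallest p in each direction, named below, were all among them. That estimate takes in the LSK libraries and sets 1 spread for groups of unequal spread. The named genes were also chosen by p in these data, so their passing is not separate support. The values below are therefore descriptions of the 6 libraries, with differences given as CD93-/- minus WT.

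Histone H2A genes lay lower in CD93-/- LSCs with few exceptions. Replication-dependent histone genes sit in clusters on chromosomes 13, 3 and 11, supply the histones that package new DNA in S phase, and encode mRNAs that end in a conserved stem-loop in place of a poly(A) tail. H2A and H2B genes often lie head to head and share the stretch between their start sites. The groups H2A, H2B and U3 below were singled out after their values were seen, so their counts are not tested. The stem-loop, a 16-base hairpin bound by the stem-loop binding protein, is shown in capitals for members on which the comparison turns, first 4 H2A and then 3 H2B genes, within 30-base windows of GENCODE M21 transcripts read 5′ to 3′ (coordinates are those of the gene on GRCm38).
Hist1h2ad, chr13:23574381-23574952, plus strand: aaacaaaGGCTCTTTTCAGAGCCatccact
Hist1h2ae, chr13:23570517-23571220, minus strand: aaacaaaGGCTCTTTTCAGAGCCattcact
Hist1h2ag, chr13:22042460-22042944, minus strand: caacaaaGGCTCTTTTCAGAGCCacctaac
Hist2h2aa2, chr3:96239749-96240276, minus strand: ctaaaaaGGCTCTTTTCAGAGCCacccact
Hist1h2bf, chr13:23573736-23574196, minus strand: acccaaaGGCTCTTTTCAGAGCCacctacc
Hist1h2bg, chr13:23571396-23572013, plus strand: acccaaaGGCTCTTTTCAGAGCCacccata
Hist1h2bj, chr13:22043214-22043676, plus strand: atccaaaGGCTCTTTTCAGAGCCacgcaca
This exact hairpin was found in annotated transcripts of 10 of the 19 H2A and 6 of the 13 H2B genes of the set, and of 29 of all 55341 gene names (0.0524%). H2A and H2B genes thus carry the same element.

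All 19 H2A cluster genes listed were detected in all 6 LSC libraries, and 17 had every CD93-/- LSC rank below every WT LSC rank, against 12.3% of all 661 features. Hist1h2ad was at 414, 561 and 380.0 RPKM in CD93-/- LSCs and 2107, 1828 and 1010.4 in WT LSCs. Hist1h2ae was at 179, 271 and 202 RPKM in CD93-/- LSCs and 1148, 861 and 642 in WT LSCs. Hist2h2aa2, in the chromosome 3 cluster, was at 98.1, 104 and 98.8 RPKM in CD93-/- LSCs and 821, 605 and 519 in WT LSCs. For each of these 3 genes the CD93-/- LSC values lay close together and below the lowest WT LSC value. Hist1h2ad differed by −26.22 percentile points in rank (SE 5.06) and Hist2h2aa2 by −36.81 (SE 7.90), both with adjusted p = 0.106 by limma. Over the 17 genes the WT mean RPKM was 3.26 to 8.95 times the CD93-/- mean. Left out of the 17 were Hist1h2aa, a low gene at 6.40, 6.79 and 1.90 RPKM in CD93-/- and 6.64, 8.43 and 9.49 in WT LSCs, and Hist2h2ac, at 525, 21.1 and 8.53 in CD93-/- and 210, 246 and 164 in WT LSCs. H2A cluster genes made up 0.566%, 0.516% and 0.308% of the column total in CD93-/- LSCs and 2.27%, 2.09% and 1.32% in WT LSCs. By RPKM, the count of 17 became 18 without CD93-/- LSC library 1 and was 17 without any other of the 6 libraries. Such a count cannot fall when a library is left out, so this does not test the 17. The open reading frames of 15 of these genes have a median identity of 96.4%, so reads can be shared between them and the genes do not count as 17 separate measurements.

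H2B cluster genes gave a different picture. Of 13 in the set, 0 had ranks that separated the genotypes, and 7 had a negative rank difference against 49.8% of all 661 features. Their median RPKM was 160, 6.95 and 191 in CD93-/- LSC libraries 1 to 3 and 171, 112 and 144 in WT LSC libraries 1 to 3. The library labelled CD93-/- LSC 2 had the lowest median, with none of the 13 above 116 RPKM there, while its H2A values resembled those of the other CD93-/- LSC libraries. Hist1h2bf was at 536, 6.95 and 290.1 RPKM in CD93-/- LSCs and 100.3, 56.6 and 106 in WT LSCs. Of 12 H3 cluster genes detected in all 3 WT LSC libraries, 5 were detected in no CD93-/- LSC library and 0 in all 3, beside 33% and 16.5% of all features. All 13 H4 cluster genes were detected in 1 or 2 CD93-/- LSC libraries. H3 genes held 0.0192% of the column total in CD93-/- LSC library 2 and stood at the lowest value in libraries 1 and 3, while they held 0.0779%, 0.0867% and 0.109% in WT LSCs.

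The contrast between H2A and H2B ran within head-to-head pairs. In 11 pairs with both genes in the set, 176 to 306 bases separate the start sites. The H2A gene had every CD93-/- LSC RPKM below every WT LSC RPKM in 10 of the 11 pairs, and the H2B gene in 2, Hist1h2bj and Hist1h2bk. The share of all features by RPKM is not given here, and by rank it was 12.3%. In the pair of Hist1h2ad and Hist1h2bf the H2A gene was lower in all 3 CD93-/- LSC libraries, while the H2B gene was above every WT LSC value in libraries 1 and 3 and below every WT LSC value in library 2. In the pair of Hist1h2ag and Hist1h2bj both genes were lower: Hist1h2ag was at 662, 778 and 303 RPKM in CD93-/- and 3036, 2602 and 1507 in WT LSCs, and Hist1h2bj at 63.3, 8.34 and 86.3 in CD93-/- and 467, 113 and 424 in WT LSCs. The start regions of an H2A gene from a pair that parted and from this pair are shown from RefSeq (GRCm38.p6), 250 bases before to 50 after the annotated start on the gene's strand, with CCAAT boxes (CCAAT) and TATA boxes (TATAAA) on either strand in capitals.
Hist1h2ae, chr13:23571171-23571470, minus strand: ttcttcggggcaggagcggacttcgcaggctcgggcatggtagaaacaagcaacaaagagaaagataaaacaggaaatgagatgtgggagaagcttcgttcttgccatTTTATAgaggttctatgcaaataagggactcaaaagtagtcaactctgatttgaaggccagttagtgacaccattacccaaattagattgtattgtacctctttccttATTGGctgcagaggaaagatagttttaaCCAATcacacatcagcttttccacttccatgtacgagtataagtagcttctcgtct
Hist1h2ag, chr13:22042900-22043199, minus strand: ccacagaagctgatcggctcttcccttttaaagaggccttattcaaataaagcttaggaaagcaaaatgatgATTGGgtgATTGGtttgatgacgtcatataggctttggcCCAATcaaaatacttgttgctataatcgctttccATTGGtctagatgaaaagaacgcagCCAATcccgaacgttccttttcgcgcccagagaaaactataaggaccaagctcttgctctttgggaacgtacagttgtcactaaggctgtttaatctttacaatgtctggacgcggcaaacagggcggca
A CCAAT box was present in all 17 H2A and all 12 H2B start regions found in the table, against 37.4% of 32851 start regions of the same length. A TATA box was present in 11 of the 17 H2A and 6 of the 12 H2B regions, against 13.6%. Neither motif can set the H2A and H2B genes apart here, since paired genes share much of the scanned stretch and both strands were searched. The motif capitalized in Hist1h2ae as TTTATA reads TATAAA on the strand of its partner Hist1h2bg. SMART-Seq v4, the kit named in the labels, primes cDNA on poly(A), so how much of the mature tail-less histone mRNA these values capture is not known.

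**Figure D2:**
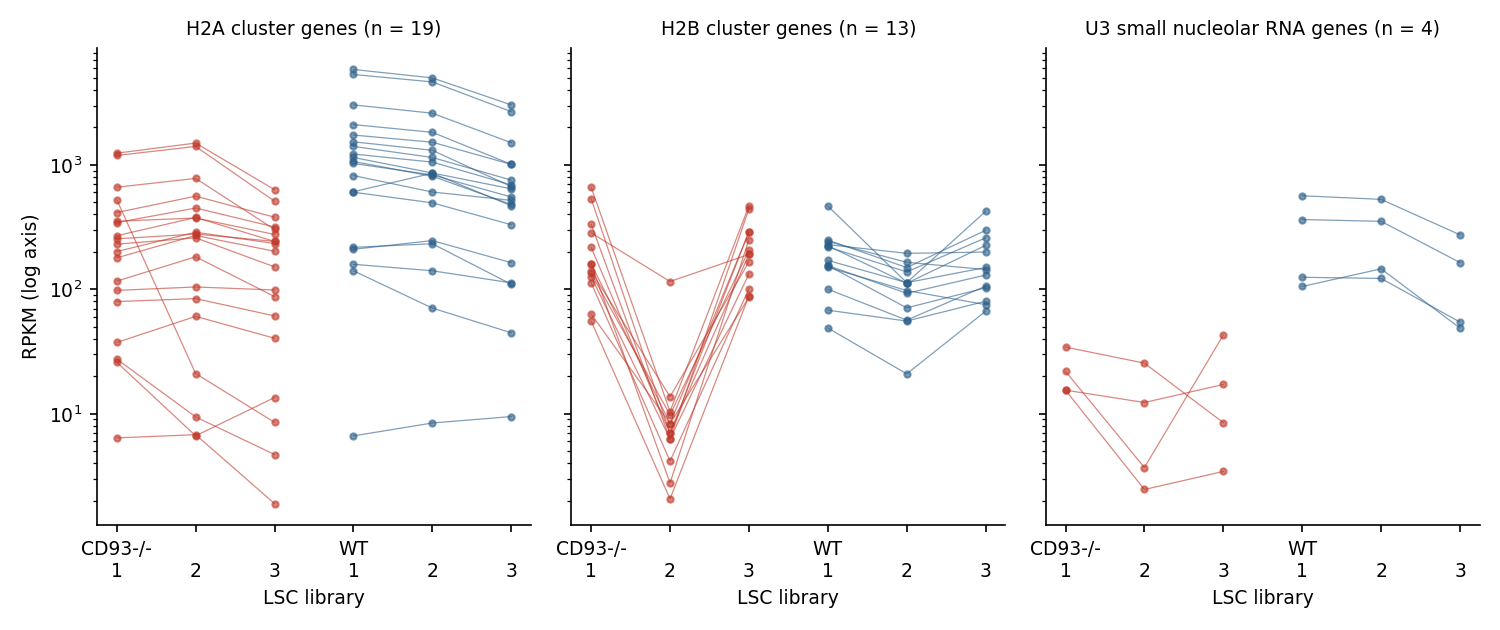
RPKM (vertical log axis) of each H2A, H2B and U3 gene of the set in the 3 CD93-/- LSC libraries (red, left) and the 3 WT LSC libraries (blue, right); points are genes and each line joins the values of 1 gene. H2A lines lie lower in CD93-/- LSCs for 17 of 19 genes, 12 of the 13 H2B genes lie under 20 RPKM in CD93-/- LSC library 2, and all 4 U3 genes lie lower in CD93-/- LSCs.

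U3 RNA genes also had low values in CD93-/- LSCs. U3 is a small nucleolar RNA that guides the first cuts of the ribosomal RNA precursor. Rnu3b1 (chr11:87443237-87443451, plus strand) was at 15.5, 12.3 and 17.2 RPKM in CD93-/- LSCs and 565, 528 and 274 in WT LSCs, a rank difference of −46.42 points (SE 8.11, limma adjusted p = 0.106). Rnu3b4 was at 34.3, 25.5 and 8.48 RPKM in CD93-/- LSCs and 364, 352 and 164 in WT LSCs. All 4 U3 genes had RPKM below the WT LSC range in every CD93-/- LSC library, and 3 of the 4 also in rank. By rank 12.3% of all 661 features did so, and the share by RPKM is not given here. These copies lie close together on chromosome 11, and how reads matching several of them were counted is not stated. Rn4.5s, a small RNA of rodents, was at 143, 105 and 91.4 RPKM in CD93-/- LSCs and 437, 689 and 502 in WT LSCs.

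Of the 10 lower genes with the smallest p, 6 were H2A genes and 2 were U3 genes, and the others were Anp32b and Abcf1. Anp32b, a nuclear histone chaperone, was at 231, 725 and 481 RPKM in CD93-/- LSCs and 2893, 3256 and 1632 in WT LSCs (rank difference −31.87, SE 5.74, limma adjusted p = 0.106). Abcf1, an ATP-binding protein that promotes translation initiation, was at 55.3, 7.27 and 29.8 RPKM in CD93-/- LSCs and 331, 379.9 and 447 in WT LSCs. The groups did not overlap for either gene. Vim (vimentin) was at 179, 6.81 and 31.9 RPKM in CD93-/- LSCs and 485, 504 and 619.7 in WT LSCs, and Actb (beta-actin) at 654, 1054 and 1267 in CD93-/- and 1949, 2939 and 1259 in WT LSCs. Without the library labelled CD93-/- LSC 2, 3 features passed, all lower: both entries of Erdr1 and the mitochondrial tRNA TrnE, named after their values were seen (limma adjusted p = 0.0350 to 0.0356). Erdr1 was at 5.12, 377 and 36.7 RPKM in CD93-/- LSCs and 3350, 2237 and 1399 in WT LSCs. When the set was redefined without that library, these 3 and Anp32b passed as lower (limma, largest adjusted p = 0.0400).

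Among the genes with higher ranks, Mrps18c, a protein of the small mitochondrial ribosomal subunit, had the smallest p. It was at 1609, 4941 and 5619 RPKM in CD93-/- LSCs and 591, 483 and 410.0 in WT LSCs, a rank difference of 25.67 points (SE 4.10, limma adjusted p = 0.106). Sri (sorcin, a calcium-binding protein) was at 1325, 705 and 2108 RPKM in CD93-/- LSCs and 129, 62.4 and 169 in WT LSCs. Both genes were above the WT LSC range in every CD93-/- LSC library. Hnrnpc, an RNA-binding protein of spliceosomes, was at 399, 541 and 1041 RPKM in CD93-/- LSCs and 168, 63.2 and 76.6 in WT LSCs. Eef1a1, the elongation factor that brings tRNAs to the ribosome, was at 603, 1662 and 2190 in CD93-/- and 255, 150.2 and 288 in WT LSCs. The remaining 6 of the 10, Nup85 (nuclear pore), Ndufb3 (respiratory complex I), Ubap2l (RNA-binding), Psma3 (proteasome), Lsm7 (RNA decay) and Hspa1a (inducible heat shock protein), had rank differences of 18.10 to 38.02 points and limma adjusted p of 0.106 to 0.129. Actr8 and Faim, named after their values were seen, passed as higher when the set was redefined without CD93-/- LSC library 1 (limma adjusted p = 0.0462 each).

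Respiratory chain genes of the nucleus leaned to higher ranks and those of the mitochondrion to lower ones, none past the test. Nuclear genes encode most subunits of the respiratory complexes. Of 73 detected in all 3 WT LSC libraries, 25 were in the set, 42 were detected in 1 or 2 CD93-/- LSC libraries and 6 (8.2%) in none, against 33% of all features. The median WT level of the list was 517 RPKM. Of all features, 1.89% at 500 RPKM or more and 14.9% at 100 to 500 RPKM were detected in no CD93-/- LSC library. Of the 25, 19 had a positive rank difference (50.2% of all features did), 10 lay above the WT LSC range in every CD93-/- LSC library (13.8% of all features did) and 1 below it, and 0 passed (limma). Ndufb3 was at 942, 3341 and 6142 RPKM in CD93-/- LSCs and 546, 312 and 380.0 in WT LSCs. Ndufc1, also of complex I, was at 1071, 6356 and 3626 in CD93-/- and 519, 552 and 723 in WT LSCs, and Uqcrq of complex III at 4889.6, 14142 and 5543 in CD93-/- and 2503, 1624 and 1701 in WT LSCs. The members detected in no CD93-/- LSC library included Ndufb11 at 557, 181 and 476 RPKM and Ndufa10 at 125, 103 and 47.7 RPKM in WT LSCs, so members of 1 complex stood on both sides. Of the 12 mitochondrially encoded genes of the set 11 had a negative rank difference, with a median of −4.4 points, and 8 without the library labelled CD93-/- LSC 2. ATP8, a subunit of ATP synthase, was at 882, 627 and 776 RPKM in CD93-/- LSCs and 1649, 3059 and 1754 in WT LSCs. The summed share of these genes overlapped, at 7.11%, 2.62% and 6.56% of the column total in CD93-/- and 5.27%, 4.32% and 6.10% in WT LSCs.

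Cytosolic ribosomal protein genes were kept in nearly full number. All 82 were detected in the 3 WT LSC libraries, 78 were in the set and 0 were detected in no CD93-/- LSC library. Their median rank difference was −3.6 points, with 55 negative and 23 positive, and 13 lay wholly below the WT LSC range and 4 wholly above it, beside 12.3% and 13.8% of all features. Their share of the column total was 10.5%, 11.1% and 13.2% in CD93-/- LSCs and 11.3%, 10.7% and 8.82% in WT LSCs. Rpl5, a protein of the large subunit and 1 of the 4, was at 1089, 2166 and 2274 RPKM in CD93-/- LSCs and 692, 569.6 and 613 in WT LSCs. Of 31 mitochondrial ribosomal protein genes detected in all WT LSC libraries, 4 were in the set and 5 (16.1%) were detected in no CD93-/- LSC library. Mrpl18 (266, 379 and 282 RPKM in WT LSCs) and Mrps24 (199, 255 and 882) were among the 5. The median WT level was 190 RPKM for this list and 1056 RPKM for the cytosolic list. Of all features at 100 to 500 RPKM in WT LSCs, 14.9% were detected in no CD93-/- LSC library and 27.8% in all 3. At 500 RPKM or more the shares were 1.89% and 59.3%. Whether the lists differ beyond their level was not tested.

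Heat shock genes, which encode chaperones of protein folding, leaned to higher ranks. Of 10 detected in all 3 WT LSC libraries, 7 were in the set. Of the others, 2 were detected in 1 or 2 CD93-/- LSC libraries and 1 (10%) in none, against 33% of all features. All 7 in the set had a positive rank difference, with a median of 15.9 points against 0.1 over all 661 features. Of these 7, 3 lay above the WT LSC range in every CD93-/- LSC library, and 0 passed (limma). Over all 661 features 50.2% were positive and 13.8% lay above that range. Without the library labelled CD93-/- LSC 2, 1 of the 7 was negative. Hspa1a was at 147, 14.6 and 99.6 RPKM in CD93-/- LSCs and 1.35, 1.33 and 23.4 in WT LSCs, with library 2 below the highest WT LSC value. Hspa8, the constitutive member of that family, was at 1040.2, 907 and 2401 in CD93-/- and 387, 379 and 530.0 in WT LSCs, and its co-chaperone Dnaja1 at 346, 343 and 712 in CD93-/- and 130.2, 108 and 179.9 in WT LSCs. The 13 listed genes together held 0.64%, 0.528% and 0.705% of the column total in CD93-/- LSCs and 0.283%, 0.344% and 0.329% in WT LSCs. Proteasome genes, which degrade tagged proteins, were all detected in at least 1 CD93-/- LSC library: of 30 detected in all WT LSC libraries 14 were in the set and 0 were detected in no CD93-/- LSC library, with a median rank difference of −5.3 points.

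**Figure D3:**
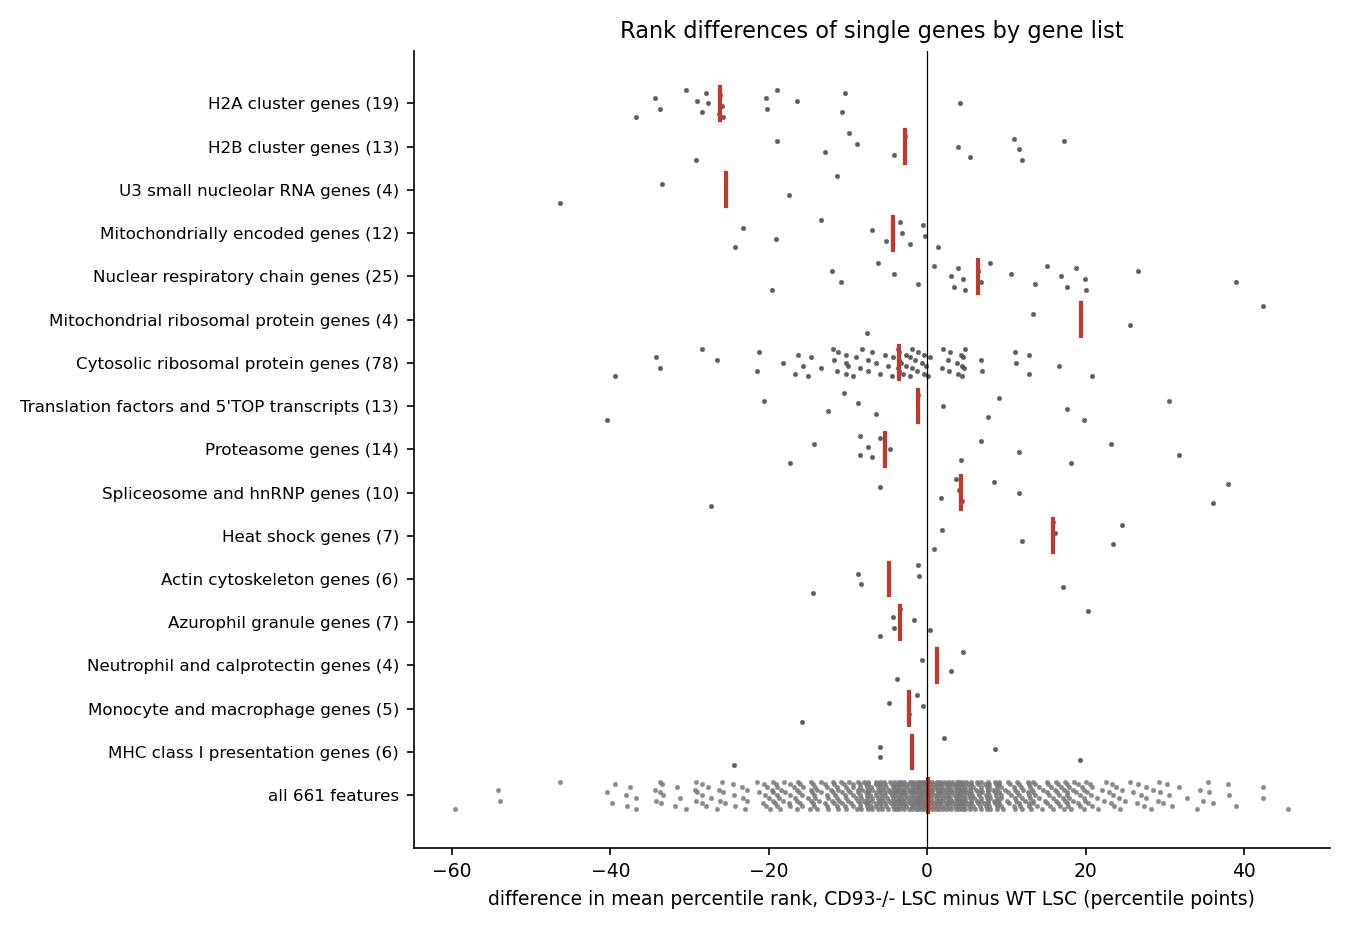
Difference in mean percentile rank, CD93-/- LSC minus WT LSC (horizontal axis, percentile points), of single genes (points) by gene list, with the median of each list as a red bar and the number of genes in brackets. The H2A median is −26.2 and the heat shock median 15.9, against 0.1 for all 661 features, and most other lists lie around 0.

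Splicing, cytoskeletal and translation genes were mixed. Over all features 33% of those detected in WT LSCs were detected in no CD93-/- LSC library, and 49.8% of the set had a negative and 50.2% a positive rank difference. Of 27 spliceosome and hnRNP genes detected in all WT LSC libraries, 10 were in the set, with 8 positive rank differences, and 1 was detected in no CD93-/- LSC library. Hnrnpu, a nuclear scaffold RNA-binding protein, was at 36.8, 459.9 and 45.8 RPKM in CD93-/- LSCs and 533, 447 and 385 in WT LSCs, so CD93-/- LSC library 2 lay inside the WT LSC range. Of 24 translation factor and 5'TOP genes 13 were in the set, 7 negative and 6 positive. Eef1b2, a nucleotide exchange factor of elongation, was at 2948, 2632 and 7458 RPKM in CD93-/- LSCs and 1489.8, 945 and 1326 in WT LSCs, above the WT LSC range in all 3 libraries. Of 20 actin cytoskeleton genes 6 were in the set, 5 of them negative, and 4 were detected in no CD93-/- LSC library, Arpc3 of the actin-nucleating Arp2/3 complex (434, 81.6 and 187 RPKM in WT LSCs) and Myh9, a non-muscle myosin, among them. Of 30 proteasome genes, Psma2, a subunit of the core particle, was at 447, 346 and 758 RPKM in CD93-/- LSCs and 206, 45.1 and 82.3 in WT LSCs, a gap that left the groups apart.

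Histone variants, which replace the standard histones at particular sites and are not confined to S phase, did not go one way. H2afx, the variant phosphorylated at DNA breaks, was at 52.0, 69.3 and 65.9 RPKM in CD93-/- LSCs and 277, 206 and 117 in WT LSCs. H2afj was at 9087, 3899.6 and 5025 RPKM in CD93-/- LSCs and 3276, 1495 and 2689.9 in WT LSCs. H2afv, a variant of the H2A.Z type, was at the lowest value in the 3 CD93-/- LSC libraries and at 799, 516 and 643 RPKM in WT LSCs. H2afx and H2afv were thus lower and H2afj higher in every CD93-/- LSC library. In the wider list of 23 histone and chromatin genes detected in all WT LSC libraries, 7 (30.4%) were detected in no CD93-/- LSC library, near the 33% of all features.

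The remaining lists had few comparable members, and their counts stand beside 16.5% of all WT-detected features that were in the set and 33% that were detected in no CD93-/- LSC library. Of 23 ribosome biogenesis genes 5 were in the set and 5 were detected in no CD93-/- LSC library, of 13 unfolded protein and integrated stress genes 6 and 1, and of 13 MHC class I presentation genes 6 and 2. Of 7 glycolysis genes 3 were in the set, all with a positive rank difference. Among lists with 0 members in the set, the members detected in no CD93-/- LSC library numbered 3 of 6 for NF-kB, 2 of 5 for the BCR-ABL1 and STAT5 pathway, 2 of 4 for CDK inhibitors and p53 targets, 1 of 6 for the BCL2 family, 2 of 3 for cholesterol and fatty acid synthesis, 1 of 4 for Wnt and 1 of 1 for Notch. Megakaryocyte and platelet genes were undetected for 3 of 5, mast cell and basophil genes for 1 of 3, and eosinophil genes for 1 of 4. Erythroid genes held 0.322%, 0.216% and 0.299% of the column total in CD93-/- LSCs and 0.470%, 0.477% and 0.405% in WT LSCs, without overlap. Monocyte and macrophage genes held 3.18%, 1.52% and 1.20% in CD93-/- LSCs and 1.09%, 2.17% and 2.67% in WT LSCs, with overlap.

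Genes of mature myeloid cells were abundant in both genotypes. Azurophil granule genes of myeloid precursors were similar, at 1.84%, 2.85% and 3.44% of the column total in CD93-/- LSCs and 3.33%, 3.14% and 2.63% in WT LSCs. Neutrophil and calprotectin genes were lower, at 2.90%, 2.89% and 4.45% in CD93-/- LSCs and 9.42%, 7.89% and 5.96% in WT LSCs. S100a8 and S100a9, the subunits of calprotectin, held most of this sum in WT LSCs. S100a9 was at 10858, 3066 and 13829.5 RPKM in CD93-/- LSCs and 41547, 38452 and 19006 in WT LSCs, whereas Camp, a cathelicidin of neutrophil granules, was at 9311, 18019.8 and 18559 in CD93-/- and 8446, 2906 and 7447 in WT LSCs. S100a8 and S100a9 stood among the highest ranks in every library, so ranks hardly showed their difference. Dendritic cell and MHC class II genes were higher in sum, at 0.187%, 0.208% and 0.521% in CD93-/- LSCs and 0.0420%, 0.0596% and 0.172% in WT LSCs, but through different genes. Bst2, also an interferon-induced gene, was at 0.003, 2427 and 6430.1 RPKM in CD93-/- LSCs and 150.3, 391 and 275 in WT LSCs, while Cd74 was at 453, 38.01 and 0.003 in CD93-/- and 17.3, 31.3 and 396 in WT LSCs. T and NK cell genes ranged from 0.000069% to 0.191% in CD93-/- LSCs and from 0.0919% to 0.222% in WT LSCs, B lineage genes from 0.000024% to 0.330% in CD93-/- and from 0.0125% to 0.0945% in WT LSCs. Endothelial and stromal genes held at most 0.00531% in CD93-/- and 0.00473% in WT LSCs. The part of these cells in the differences above was not tested.

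Regulators of stem cells and of the cell's early response were among the features detected in no CD93-/- LSC library. Of 10 AP-1 and immediate-early genes detected in all WT LSC libraries 6 (60.0%) were detected in no CD93-/- LSC library, against 33% of all features, and 0 in all 3. Their median in WT LSCs was 55.5 RPKM, near the 50.3 RPKM of all 4005 features. Atf3, a stress-induced partner of AP-1, was at 19.6, 23.4 and 1.70 RPKM in WT LSCs, and Zfp36, which promotes decay of AU-rich mRNAs, at 1.01, 15.6 and 12.2. Of 6 blood stem cell genes 4 were in no CD93-/- LSC library: Meis1, Myb, Etv6 and Kit. The median WT level of these stem cell genes was lower, at 21.9 RPKM. Of all features, 36.0% at 20 to 100 RPKM, 53.5% at 5 to 20 RPKM and 56.7% under 5 RPKM were undetected. Whether the loss goes beyond the level of the genes was not tested. Myb, a transcription factor of progenitors, was at 54.6, 78.9 and 14.1 RPKM in WT LSCs, and Etv6 at 4.66, 0.501 and 3.17. Both counts were again 6 and 4 without CD93-/- LSC library 2 and without library 3. Leaving out a CD93-/- LSC library cannot lower such counts, so this does not test them.

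Genes tied to CD93 itself were seen in some CD93-/- LSC libraries only. Of the 6 genes of the CD93 family, its ligands and partners that were detected in all WT LSC libraries, 0 were detected in all CD93-/- LSC libraries and 0 in none of them. Over all 4005 WT-detected features these shares were 16.5% and 33%, and 2023 features were detected in 1 or 2 CD93-/- LSC libraries. Whether these 6 genes differ from all features was not tested. Itgb1, the beta-1 integrin chain, was at 2.66, 0.003 and 0.003 RPKM in CD93-/- LSCs and 29.8, 48.5 and 33.7 in WT LSCs. Its partner Itga4 was at 0.003 in the 3 CD93-/- LSC libraries and 18.1, 71.4 and 50.7 RPKM in WT LSCs. Msn (moesin, which ties CD93 to actin) was at 263, 0.003 and 0.003 in CD93-/- and 49.7, 129.8 and 177 in WT LSCs. Cd47, an inhibitory signal to phagocytes, was at 353, 127 and 0.003 RPKM in CD93-/- LSCs and 36.9, 80.6 and 30.1 in WT LSCs, so library 1 and library 2 were above the WT LSC range and library 3 listed none.

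Interferon and cell cycle genes were undetected at about the 33% of all features. For type I interferon response genes the count was 6 of 18 (33.3%), Oas1a and Stat2 among them. For S-phase genes it was 3 of 12 (25%), with the replication factors Prim1 and Mcm2, and for G2/M genes 5 of 17 (29.4%), with the mitotic kinesin Kif11 and the kinase Cdk1. Cdk1 was at 89.1, 0.817 and 8.63 RPKM in WT LSCs. For the S100, annexin and galectin list it was 4 of 12 (33.3%), namely S100a6, S100a10, S100a4 and Anxa2. The median WT level of that list was 573 RPKM, and 1.89% of all features at 500 RPKM or more were undetected, 14.9% at 100 to 500 RPKM.

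**Figure D4:**
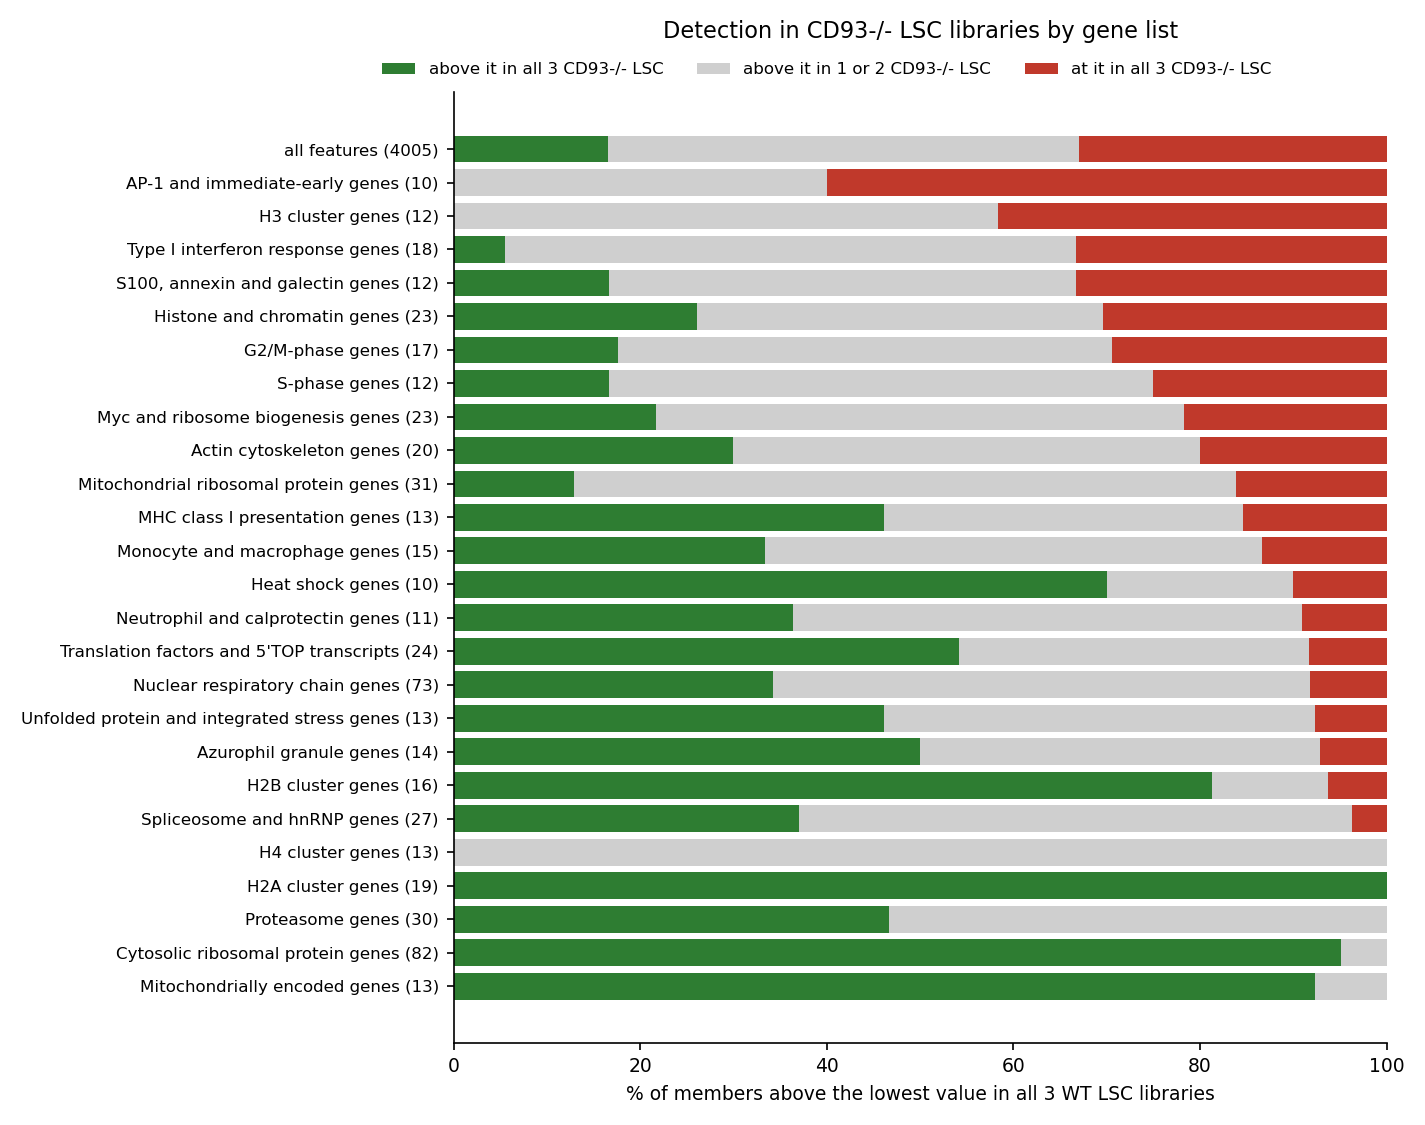
Percentage of the members detected in all 3 WT LSC libraries (number in brackets) that were also detected in all 3 (green), in 1 or 2 (grey) or in none (red) of the CD93-/- LSC libraries, by gene list, for lists with at least 10 such members, and for all 4005 features at the top. The red part is 33% for all features, 60.0% for immediate-early genes and 0% for cytosolic ribosomal protein and proteasome genes. The lists differ in WT level, which detection followed.

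The undetected genes of highest WT level came from several cell processes. Of the 1321 features 43 had at least 100 RPKM in each WT LSC library. The 25 with the highest WT minimum were ordered by it. After the genes already named, they included Naa10 (the catalytic subunit of an N-terminal acetyltransferase, 311, 418 and 344 RPKM in WT LSCs), Nt5dc2 (229, 324 and 270.1), Higd2a (an assembly factor of respiratory complex IV, 179.5, 363 and 246), Trappc1 (vesicle transport, 260.2, 139 and 286), Exosc4 (RNA exosome, 119.8, 317 and 639.7) and Pa2g4 (a proliferation-associated RNA-binding protein, 116, 129 and 135). Klf13, a zinc finger transcription factor, was at 173, 131 and 289 RPKM in WT LSCs but only 24.5 and 19.5 in CD93-/- LSK and 12.5 and 6.36 in WT LSK. The 1321 features were not absent from CD93-/- cells in general: 99.6% and 99.5% of them were detected in the CD93-/- LSK libraries, where their median was 25.04 and 20.3 RPKM, against 22.9 and 30.2 in the WT LSK libraries. Their longest annotated transcript had a median of 3542 bases, against 1697 for the 661 features detected in all 6 LSC libraries. This order held at WT levels under 100 RPKM, for example with 4105 against 1909 bases at 5 to 20 RPKM. It was reversed at 100 to 500 RPKM (1825 against 2017 bases) and at 500 RPKM or more (778 against 1054).

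In naive LSK cells no gene passed between genotypes either. Over the same 661 features 0 (0%) passed between CD93-/- LSK and WT LSK (limma, smallest adjusted p = 0.379), with 36 (5.45%) at an unadjusted p under 0.05. Of the 19 H2A genes 18 had a positive rank difference in LSK cells, with a median of 4.9 points against 0.5 over all features, so their sign was opposite to that in LSCs. Hist1h2ad was at 840.0 and 1261 RPKM in CD93-/- LSK and 742 and 462 in WT LSK cells. All 4 U3 genes were negative in both cell types: Rnu3b1 was at 588 and 584 in CD93-/- LSK and 1176 and 487 in WT LSK cells. The test of the difference itself, the genotype effect in LSCs minus that in LSK cells, called 0 of 661 (0%, limma, smallest adjusted p = 0.0796, 73 or 11% at an unadjusted p under 0.05), and 15 of the 19 H2A genes were among those 73. Without CD93-/- LSC library 3 it called 16 features lower and 5 higher, 11 of the 16 being H2A genes (Hist1h2ad, limma adjusted p = 0.0247), and without the library labelled CD93-/- LSC 2 it called 8 lower and 2 higher, with Hist1h2ad and Hist1h2ai among them. Heat shock genes had a median of −2.0 points in LSK cells, with 5 of 7 negative.

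The drug experiment gives the same genes in WT LSCs alone. MCP is a dopamine receptor antagonist that the series title links to CD93. Of the 526 features matched by name, 87 (16.5%) had higher and 106 (20.2%) lower ranks with MCP than with vehicle (limma, adjusted p under 0.05). Of the 19 H2A genes 0 were called higher and 6 lower, but the size was small, with a median of −1.6 points. Hist1h2ag, one of the 6, was at 530.0, 512 and 546 RPKM with MCP and 529, 560.1 and 519 with vehicle (limma adjusted p = 0.0142), so its levels overlapped. Of 25 respiratory chain genes 12 were called higher and 1 lower with MCP, and of 77 ribosomal protein genes 30 higher and 0 lower. Ndufa7 ranked 15.08 points higher in CD93-/- than in WT LSCs, which did not pass, and 11.66 points higher with MCP than with vehicle (limma adjusted p = 0.0104). Hspa1a was at 67.7, 74.0 and 69.9 RPKM with MCP and 44.2, 43.1 and 44.3 with vehicle, higher in rank (limma adjusted p = 0.00433). Rnu3b1 stood at the lowest value, 0.001, in Veh libraries 1 and 2 and at 144 RPKM in Veh library 3. Across features the LSC genotype difference correlated with the LSK genotype difference at Spearman −0.14 (661 features) and with the MCP difference at 0.12 (526 features), described across genes that are not independent.

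**Figure D5:**
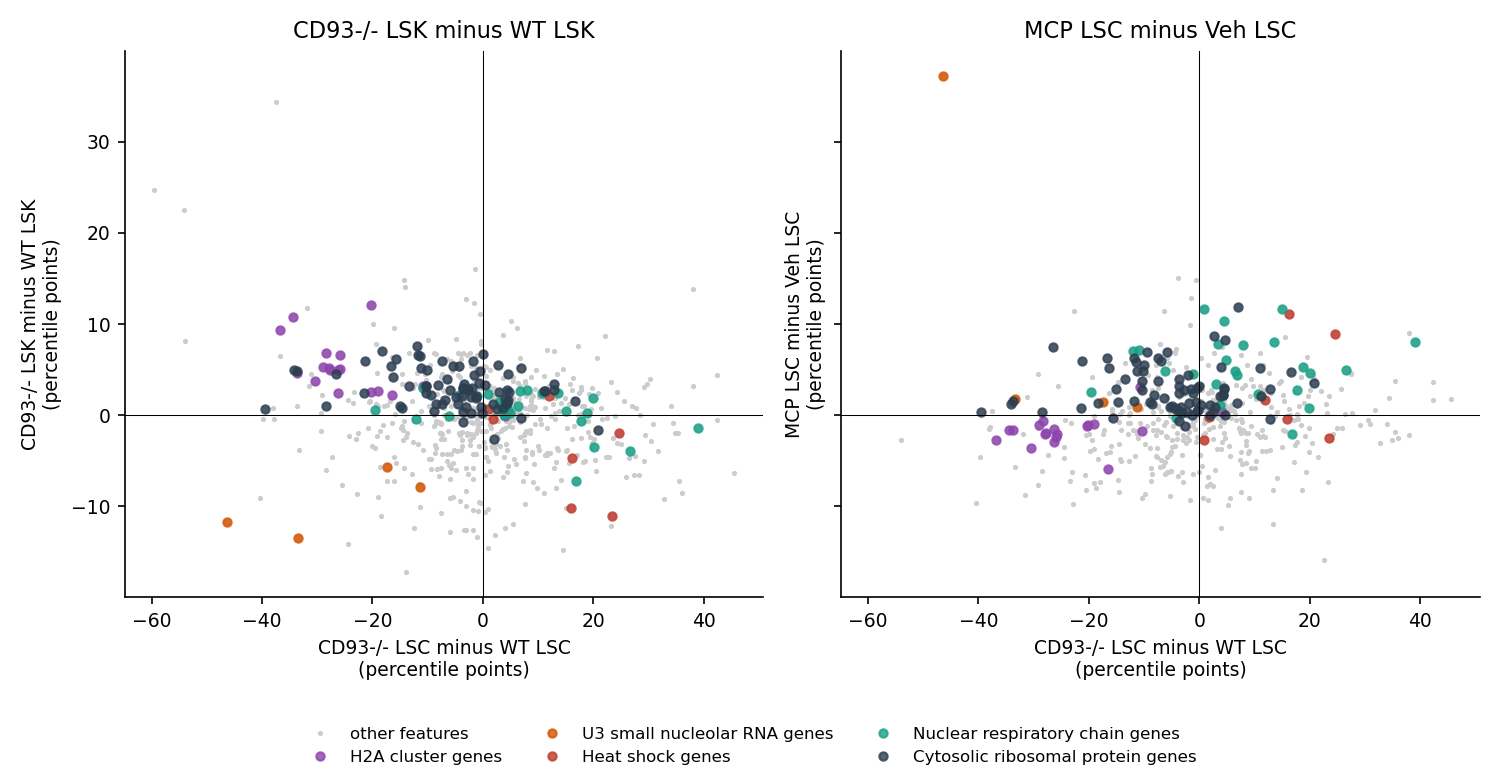
Rank difference of each feature between CD93-/- LSC and WT LSC (horizontal axis) against that between CD93-/- LSK and WT LSK (left panel, vertical axis) and between MCP and Veh LSCs (right panel, vertical axis), in percentile points. Most H2A genes (18 of 19) lie above 0 in the left panel and 17 of 19 below 0 in the right one, and U3 genes lie below 0 in LSK cells and above 0 with MCP.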

How the data were processed

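Members and gene lists were chosen with earlier results of these data known. The deposited tables hold RPKM values; the unit was inferred from the values, and per the submitters' processing notes the authors used build GRCm38 (mm10), while aligner, counter and annotation were not named. Per the labels, RNA was purified with RNeasy Micro and amplified with SMART-Seq v4. No counts were available, so no count test was run and depth is unknown. Features above 0.003 in all 6 LSC libraries were ranked within each library (ties averaged), scaled from 0 to 100 and compared with limma 3.58.1 (R 4.3.3; moderated, with intensity trend, two-sided, Benjamini-Hochberg over the set at 0.05), and tested on simulated data first. In the drug experiment the lowest value is 0.001. Features sharing a name (454) were kept apart. Named are Cd93, the 10 smallest p each way and some of the 25 undetected features of highest WT minimum, of the 10 features of highest rank and of up to 4 members per list by p or WT minimum; the lists number 40. Unnamed models were left out except where a count of 5 or fewer is spelled out. Additional members were chosen after their values were seen. Positions are from GENCODE M21, start regions from RefSeq (GRCm38.p6). The alternatives tried cover the scale, the filter, the samples in the fit, library weights, a replicate block and leaving out each library.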

Additional observations from a re-analysis of the deposited data

How the results depend on the processing

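The count of 0 genes called in LSCs held in each direction under normal scores, log2(value + 1), log2(value + 0.1), median centring, a minimum of 1 RPKM, detection in 5 of 6 libraries, library weights and ranks without histone and short non-coding genes. Ranks over all features called 70 higher and 14 lower, whole-table levels 10 higher and 1178 lower, and a spread shared by 10 libraries 32 higher and 28 lower. Leaving out 1 library gave 0 higher and 0 to 3 lower, and the set redefined without CD93-/- LSC library 1 gave 2 higher and without library 2 gave 4 lower; the cause was not tested. The redefined sets, the ranks without histone and short non-coding genes, and the counts by gene list without a library were chosen after seeing the data. Replicate numbers did not pair the LSC samples (same-number correlations of deviations 0.011, −0.039 and −0.023), and a replicate block still left 0 called higher and 0 lower in LSCs and in LSK cells. In the drug experiment that block left 42 higher and 59 lower, and leaving out 1 library 28 to 84 higher and 46 to 99 lower. The test between LSCs and LSK cells called 0 to 5 higher and 0 to 16 lower on leaving out 1 LSC library. The 20 named genes, chosen by their p in these data, kept their sign throughout. All 20 passed with the spread of 10 libraries, which takes in the LSK libraries and is not separate support. The difference in detected features was −5242.5 to −4027.0 without 1 library, and undetected features numbered 1426 to 2475, highest without WT LSC library 3, and 2070 without CD93-/- LSC library 1. Leaving out a library cannot lower the number of undetected features. Depth is unknown, so undetected does not mean absent.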
